A study of Saccharomyces cerevisiae with 6 samples.

Results

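HSP12, SIP18, GRE1 and STF2 encode the small hydrophilic stress proteins of budding yeast that are linked to survival of drying. They were taken as a group of 4 genes by name, out of 5449 S. cerevisiae genes measured, and each was read from the 1 probe set (group of array probes for a transcript) that the platform annotation assigns to it. Each of the 4 probe sets carries the plain identifier ending that Affymetrix gives to probes of a single gene. The arrays compared 2 genotypes of strain JJ816, whose chromosomal copies of both Hsp90 genes, HSC82 and HSP82, were deleted in all cultures. A plasmid supplied the only Hsp90, either the wild-type protein (WT Hsc82) or a mutant in which alanine takes the place of a tryptophan (hsc82-W296A, here also the mutant). Hsp90 is a chaperone on which many signalling proteins depend. There were 3 cultures per genotype, labelled as biological replicates, grown in YPD at 30 °C to an optical density of 0.5, in exponential phase, and the labels name no drying, heat or salt. All results hold for this 1 strain with plasmid-borne Hsp90, and no culture had a chromosomal Hsp90 gene.

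Hydrophilins are glycine-rich, highly hydrophilic proteins, largely unfolded in solution, that accumulate when cells lose water, and they resemble the late embryogenesis abundant proteins of plant seeds. In yeast their genes are kept low in growing cells with ample glucose, where protein kinase A holds back the transcription factors Msn2 and Msn4, and they are induced by osmotic stress through the kinase Hog1, by heat and on entry into stationary phase. Hsp12 associates with membranes and stabilises them. Sip18 binds phospholipids and, like its paralog Gre1, is induced by salt and drying. Stf2 was first described as a factor that stabilises the inhibitor of the mitochondrial F1F0-ATPase, and it is also needed for survival of drying and rewetting. Tma10 is the paralog of Stf2. By the R64 gene table the reading frames are short, with 109 codons in HSP12, 79 in SIP18, 168 in GRE1 and 84 in STF2, and the genes lie on chromosomes VI, XIII, XVI and VII.

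Values are the deposited log2 signals, so a difference of 1 is a 2-fold change. Changes are hsc82-W296A minus WT Hsc82 with the standard error (SE) of a limma fit over all S. cerevisiae probe sets, n = 3 arrays per genotype, and a gene is said to have risen or fallen where the Benjamini-Hochberg adjusted p of that fit was under 0.05. The limit for background signal was 8.14, the 95th percentile of probe sets for another species on the same arrays, and the brightest probe set of an array read 14.79 to 14.93. HSC82 itself read 14.28 ± 0.035 (SD, n = 3) on the WT arrays and 14.54 ± 0.016 on the mutant arrays, 0.26 higher, a difference that became -0.088 when background and middle of the arrays were matched. Its probe set cannot show the substitution.

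All 4 hydrophilin genes rose in hsc82-W296A, with no overlap between the genotypes. As deposited each rise was at least 2-fold, a mark that HSP12 (0.87) and STF2 (0.84) missed with background and middle matched and STF2 (0.99) also missed after median centring, all 3 values being log2 changes past the threshold. GRE1 rose 8.46-fold, SIP18 4.94-fold, HSP12 2.30-fold and STF2 2.16-fold. Against this, 37.1% of all genes rose and 30.3% fell, 8.9% rose at least 2-fold, and 39.5% were higher with no overlap between groups. In a ranking of all 5449 genes by their change, GRE1 was at place 25, SIP18 at 83, HSP12 at 355 and STF2 at 406. In RNA from whole cultures, more cells with the transcript and more transcript per cell cannot be told apart.

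HSP12, the membrane-associated member, read 13.64, 13.44 and 13.49 on WT arrays 1, 2 and 3, against 14.67, 14.77 and 14.74 on mutant arrays 1, 2 and 3. The lowest mutant array lay 1.03 above the highest WT array. The means were 13.52 ± 0.107 (SD, n = 3) and 14.73 ± 0.050, a change of 1.20 ± 0.065 (SE; limma adjusted p = 1.30e-05). HSP12 read far above background in WT Hsc82, and in hsc82-W296A only 3 genes had a higher mean signal. It thus read near the upper end of the array's scale, and whether the signal is compressed there, which would understate the rise, was not tested.

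SIP18, the phospholipid-binding member, read 12.20, 12.13 and 12.07 with WT Hsc82 and 14.37, 14.50 and 14.44 with hsc82-W296A. The gap between the groups was 2.16, far beyond the spread within either. The means of 12.13 ± 0.069 and 14.44 ± 0.068 (SD, n = 3) differed by 2.30 ± 0.057 (SE; limma adjusted p = 9.05e-07).

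GRE1, the paralog of SIP18, read 11.31, 11.09 and 11.09 on the WT arrays and 14.21, 14.32 and 14.20 on the mutant arrays. Its groups were the farthest apart of the 4, with a gap of 2.89. The means were 11.16 ± 0.125 and 14.24 ± 0.067 (SD, n = 3), and the change was 3.08 ± 0.074 (SE; limma adjusted p = 8.52e-07). The WT signal of GRE1 lay well above background, so its rise did not start from a floor.

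STF2, the ATPase inhibitor stabilising factor, read 12.55, 12.82 and 12.76 on the WT arrays and 13.80, 13.84 and 13.82 on the mutant arrays. The mutant arrays were nearly equal, and the lowest of them lay 0.98 above the highest WT array. The means of 12.71 ± 0.145 and 13.82 ± 0.019 (SD, n = 3) differed by 1.11 ± 0.076 (SE; limma adjusted p = 3.30e-05).

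**Figure D1:**
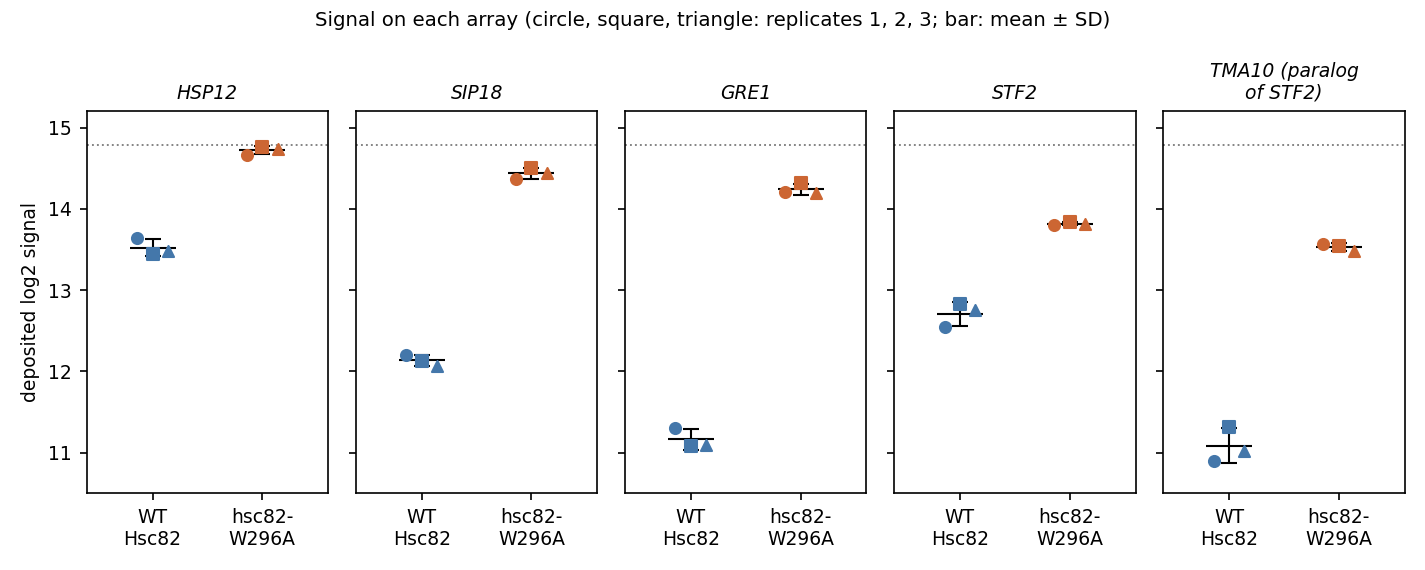
Deposited log2 signal (vertical axis) of HSP12, SIP18, GRE1, STF2 and TMA10 on each array, 3 WT Hsc82 (blue) and 3 hsc82-W296A (orange), with mean ± SD as black bars. In every panel the 3 mutant arrays sit above the 3 WT arrays, and HSP12 in the mutant lies just under the dotted line at 14.79, the lowest of the 6 array maxima.

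The sizes of the rises were compared within arrays. Within each array the SIP18 signal minus the GRE1 signal was 0.90 to 1.04 with WT Hsc82 and 0.16 to 0.24 with the mutant, which makes the measured rise of SIP18 0.78 ± 0.049 (SE) smaller than that of GRE1. Both paralogs lay near the upper end of the scale in the mutant, and the part of compression in this difference was not tested. The difference STF2 minus TMA10 went from between 1.504 and 1.734 to between 0.23 and 0.34, a measured rise of STF2 that was 1.34 ± 0.074 smaller than that of its paralog. The measured rise of HSP12 exceeded that of STF2 by 0.09 ± 0.147, less than its SE. An exact two-sided permutation test over arrays cannot give less than p = 0.1 for 3 against 3, and it gave that value for 6 of the 7 pairs compared (adjusted over the 7 pairs, p = 0.117) and p = 0.6 for HSP12 against STF2. No pair passed this test.

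The replicates of WT Hsc82 did not vary alike across the group. Replicate 1 was the highest WT array for HSP12, SIP18 and GRE1 but the lowest for STF2. Leaving that array out gave changes of 1.26, 2.34, 3.15 and 1.03 for HSP12, SIP18, GRE1 and STF2, all still past the threshold. In hsc82-W296A the SD was 0.019 to 0.068 for the 4 genes, against 0.069 to 0.145 in WT Hsc82.

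**Figure D2:**
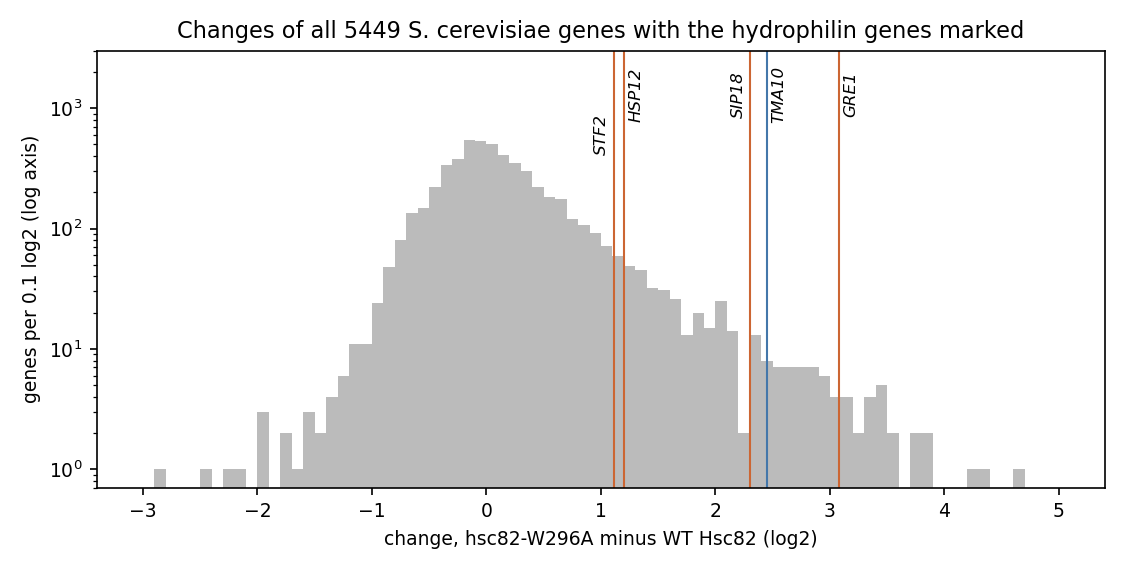
Histogram of the change (log2, hsc82-W296A minus WT Hsc82) of all 5449 S. cerevisiae genes, with the number of genes per bin on a log axis. Orange lines mark the 4 hydrophilin genes, from STF2 at 1.11 to GRE1 at 3.08, and the blue line TMA10 at 2.45, all in the right tail of a distribution with a median of 0.04.

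The transcripts of the F1F0-ATPase inhibitors, with whose proteins Stf2 was first found, rose too, and TMA10 was listed with them as the paralog of STF2. Inh1 and Stf1 are the inhibitors that block ATP hydrolysis by the enzyme when mitochondria lose their membrane potential. TMA10 read 10.90, 11.32 and 11.02 on the WT arrays and 13.57, 13.54 and 13.48 on the mutant arrays, a rise of 2.45 ± 0.105 (SE; limma adjusted p = 6.07e-06), or 5.46-fold. STF1 rose by 1.22 ± 0.045 from 12.16, with STF2 at 1.11 on the same scale. INH1 rose by 0.64 ± 0.070 from 13.03, or by 0.37 with background and middle matched. The 3 genes thus all rose, TMA10 and STF1 at least 2-fold, where 37.1% of all genes rose and 8.9% at least 2-fold. Their median change was 1.22, against 0.04 over all genes.

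Among 14 other small stress-induced proteins, TMA10 included, 13 rose and 1 fell, with a median change of 2.15. For all genes the shares were 37.1% and 30.3%, and the median was 0.04. PAI3, the inhibitor of vacuolar proteinase A, rose by 3.15 ± 0.060, MSC1 by 2.94 ± 0.058, TFS1, an inhibitor of carboxypeptidase Y, by 2.54 ± 0.058 and SPI1, a cell wall protein of stationary phase, by 2.49 ± 0.042. HSP26, a small heat shock protein that holds unfolding proteins, rose by 2.32, and DDR2 by 2.16. YNL190W rose by 0.76. The exception was DDR48, which fell by 0.22, or by 0.47 with background and middle matched. HOR7 rose by only 0.32 from 14.60, at the top of the scale, a change that was -0.054 and no longer past the threshold with background and middle matched.

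Other targets of the factors that induce hydrophilin genes were also higher. Of 27 other targets of Msn2 and Msn4, 27 rose and 23 did so at least 2-fold, and the median change was 2.16. Over all genes 37.1% rose, 8.9% rose at least 2-fold and 30.3% fell, with a median of 0.04. ALD3, an aldehyde dehydrogenase, rose by 3.24 ± 0.062 and CTT1, the cytosolic catalase, by 2.60 ± 0.073. The smallest rise was that of UBI4, polyubiquitin, at 0.53 ± 0.066, which was 0.25 with background and middle matched. Of 16 other osmotic targets of Hog1, 15 rose and 1 fell (DDR48), with a median of 1.37. STL1 rose from 7.42, below background. GPP2 rose by 0.40 and HOR7 by 0.32, which became 0.13 and -0.054, no longer past the threshold, with background and middle matched. NQM1, a transaldolase, rose by 2.64 ± 0.048 and GPD1, which makes the osmolyte glycerol, by 1.39 ± 0.095. GRE2 and GRE3, reductases found in the same screen for stress-responsive genes as GRE1, rose by 0.37 ± 0.057 (0.20 with that matching) and 1.04 ± 0.055, against 3.08 for GRE1, and the difference between these changes was not tested. The lists share genes and were chosen with earlier results of these data known, so their counts are not separate lines of evidence.

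Trehalose is the other well-known protectant of dry yeast, and its genes rose as well. All 8 genes of a list of trehalose enzymes and the disaggregase gene HSP104 rose, with a median of 1.405. The share of all genes that rose was 37.1%, and their median was 0.04. TSL1 and TPS2, of the trehalose synthase complex, rose by 2.85 ± 0.146 and 1.85 ± 0.125, and TPS1, the synthase itself, by 1.24 ± 0.159. The breakdown enzymes rose alongside, NTH1 by 1.57 ± 0.107 and ATH1 by 1.83 ± 0.115, the latter from 8.04, below background, so its size is uncertain. HSP104, whose product rescues aggregated proteins, rose by 0.89 ± 0.081.

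The transcripts of the regulators themselves were mixed. Of 15 measured, 9 rose and 1 fell, with a median change of 0.35, where 37.1% of all genes rose and 30.3% fell. After quantile normalization 3 fell, and HSF1 and SMP1 lost their calls as higher. The largest rise was that of YAK1, a kinase that opposes protein kinase A, at 1.86 ± 0.115, followed by the stress kinase gene RIM15 at 1.25 ± 0.117. BCY1, the inhibitory subunit of protein kinase A, rose by 1.11 ± 0.109 and TPK3, a catalytic subunit, fell by 0.57 ± 0.053. MSN4 rose by 0.68 ± 0.075 and GIS1, a factor of the post-diauxic genes, by 1.10 ± 0.126. MSN2 stood at -0.03 ± 0.079 and HOG1 at 0.0014 ± 0.050 without passing the threshold, though the HOG1 value was -0.23 and past it with background and middle matched. SKO1 at -0.10 and HOT1 at 0.05, both transcription factors under Hog1, did not pass as deposited, and after quantile normalization they were -0.28 and -0.40 and did. HSF1 rose by 0.38 ± 0.099 (limma adjusted p = 0.0122), or 0.20 after quantile normalization. Transcript level says nothing of the activity of these proteins.

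**Figure D3:**
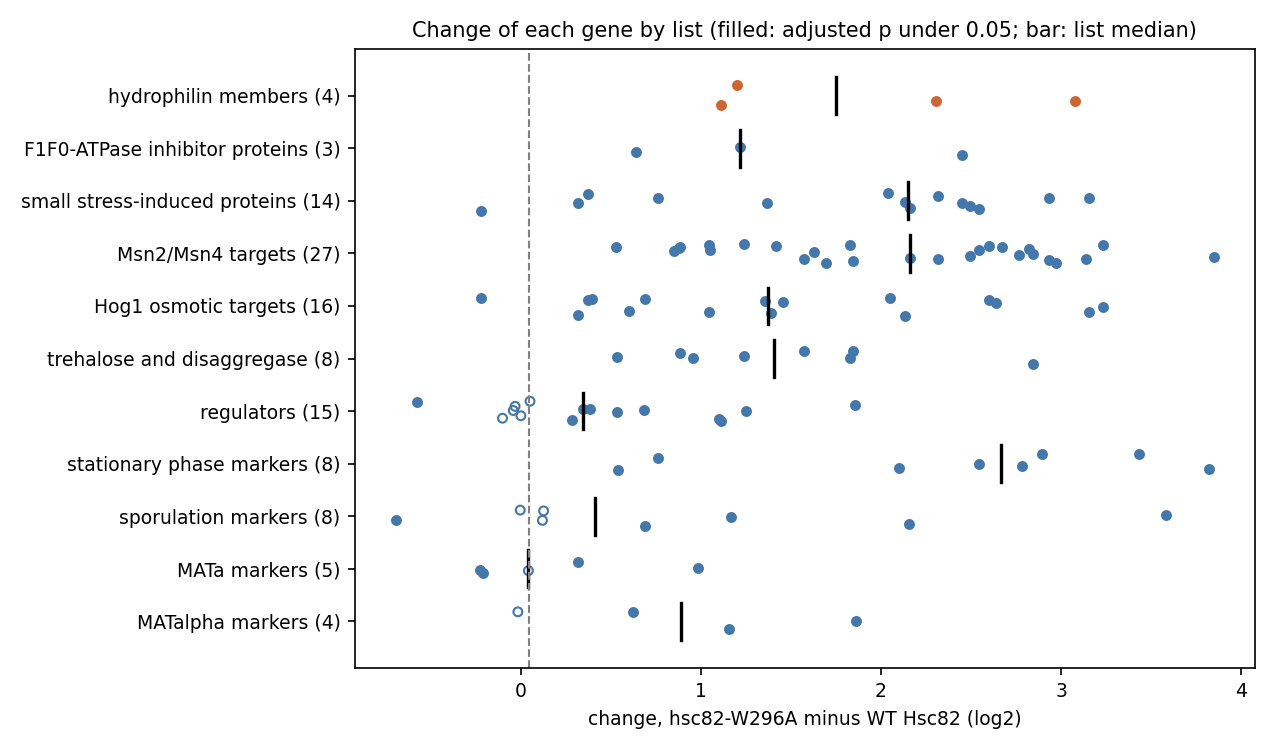
Change (log2, hsc82-W296A minus WT Hsc82) of each gene, with 1 row per list, the number of measured genes in brackets, filled points past the threshold, open points not, and black bars at list medians. The 4 hydrophilin genes (orange, 1.11 to 3.08) lie within the range of the Msn2 and Msn4 targets (0.53 to 3.85), and the regulators have the lower median of 0.35. The dashed line is the median of all genes, 0.04.

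The cultures were harvested in exponential phase, and genes of other cell states were read beside the hydrophilins. Of 8 stationary phase genes, 8 rose, with a median of 2.67. Their summed signal, on the log2 scale, was 13.74 to 13.80 on the WT arrays and 15.67 to 15.79 on the mutant arrays. SPG4 rose by 3.82 ± 0.089, FMP45 by 3.43 ± 0.090, SSA3 by 2.89 ± 0.065 and SPG1 by 2.79 ± 0.047, and FMP45 and SPG1 were below background in WT Hsc82, at 7.95 and 8.07. The smallest rises of this list were those of SPG3, 0.54 ± 0.082 from 11.65, and SPG5, 0.76 ± 0.044 from 12.30. Of 8 sporulation genes 4 rose and 1 fell, or 3 and 4 after quantile normalization, which called 1554 of all 5449 genes higher and 2428 lower. Their summed signal was 11.39 to 11.71 and 12.66 to 12.79. SPS100 rose by 3.58 and IME2 by 2.15, both from below background, and SPS4 fell by 0.69 (by 1.12 after quantile normalization), whereas DIT2 stayed below background in both genotypes, at 7.51 and 7.64. The MATalpha genes had a summed signal of 9.74 to 9.95 and 10.85 to 10.93, with 3 of 4 risen and 1 of 4 above background in WT Hsc82. The 5 MATa genes were above background in both genotypes, 2 rose and 2 fell, and their summed signal was 15.37 to 15.44 and 15.47 to 15.49. Beside these small lists stand the shares of all genes as deposited, 37.1% higher, 8.9% at least 2-fold higher and 30.3% lower. No departure from them was tested for any list. The part of cell state in the hydrophilin changes was not tested.

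The neighbours of the hydrophilin genes on the chromosomes were read to see whether the rise extended along them. Of 24 protein-coding neighbours, 3 on either side of each gene by the R64 gene order, 20 were measured, and 8 rose and 5 fell, near the shares of all genes (37.1% and 30.3%). The 8 include HXT10, below background in both genotypes at 7.30 and 7.94 and no longer past the threshold after quantile normalization (0.23), and MDJ1 at 0.28, which lost its call under 6 alternatives. ECM5, NMA2, YFL012W and HOT1, not past the threshold as deposited, passed as lower after quantile normalization, at -0.39, -0.50, -0.55 and -0.40. At least 2-fold rises were found for 3 of the 20, all beside SIP18 or GRE1, where 8.9% of all genes rose that much. Whether 3 of 20 departs from that share was not tested. PAI3 lies directly beside SIP18 and is read in the opposite direction away from it, by the strand letters of the locus tags, and it rose by 3.15. FMP40, which encodes a mitochondrial protein, stands in the same divergent arrangement with GRE1 and rose from 9.17 ± 0.208 to 11.17 ± 0.172 (SD, n = 3), a 4.01-fold rise (limma adjusted p = 2.49e-05). On the other side of SIP18 the short frame YMR175W-A rose by 1.18 ± 0.151 from 7.28, below background, and by 0.75 after quantile normalization.

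The other neighbours changed by less than 2-fold, in both directions. FLC1, the gene after FMP40, rose by 0.95 ± 0.138, and DDR48, the gene before PAI3, fell by 0.22 ± 0.052. Beside STF2, SEC9 rose by 0.48 ± 0.075 (0.27 after quantile normalization) and ECT1 fell by 0.37 ± 0.041. Beside HSP12, IES1 fell by 0.22 ± 0.055 (by 0.37 with the coding length trend removed), and YFL015C on its other side was not analysed here. Over the whole genome, 2574 genes had a measured divergent neighbour. Of the 203 among them that rose at least 2-fold, 34 had a divergent neighbour that also rose at least 2-fold, or 16.7%, against 7.13% of the 2371 other genes. SIP18 and GRE1 are 2 of those 34, and each pair counts from both sides.

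**Figure D4:**
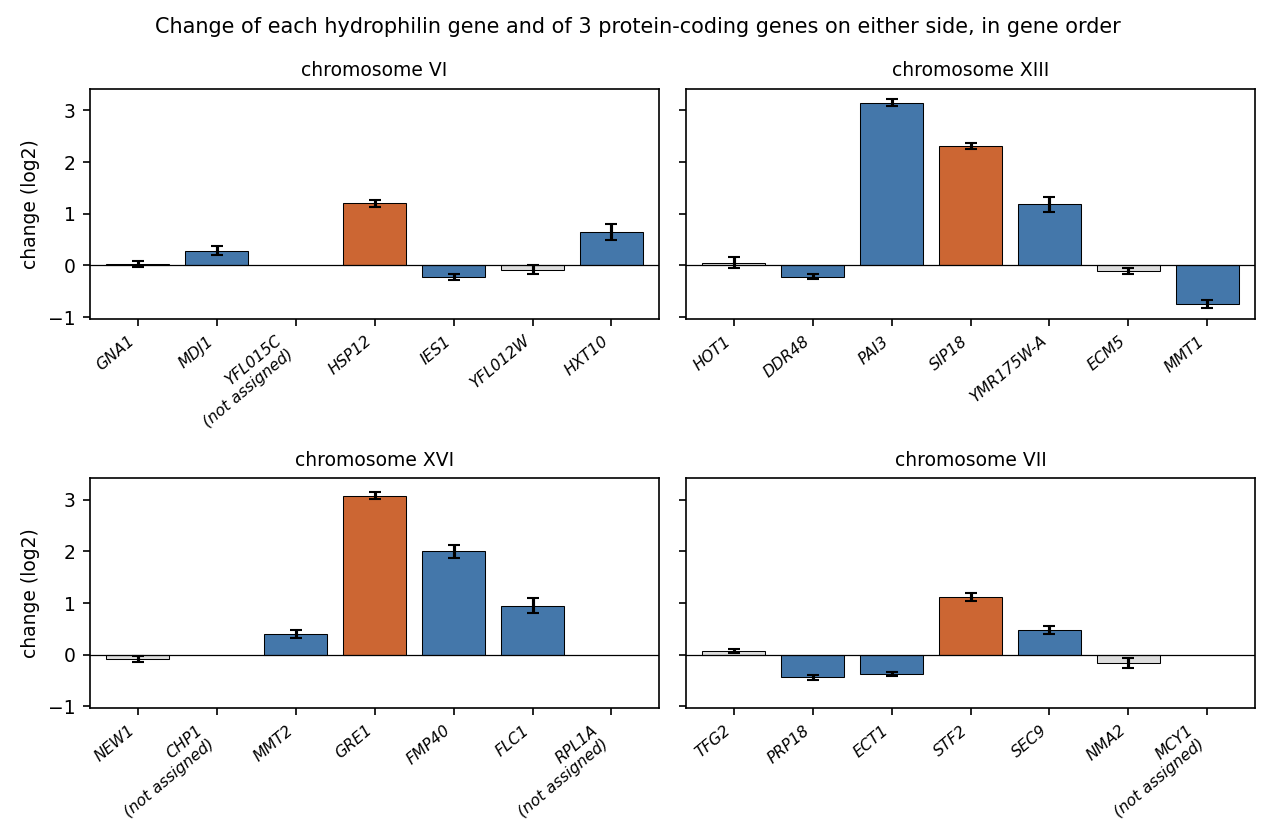
Change (log2) ± SE of each hydrophilin gene (orange) and of the 3 protein-coding genes on either side, in gene order, with blue bars past the threshold and grey bars not. PAI3 beside SIP18 rose by 3.15 and FMP40 beside GRE1 rose 4.01-fold, whereas the measured neighbours of HSP12 and STF2 lay between -0.44 and 0.64.

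Genes with the most similar pattern were found by the root mean square difference over the 6 arrays, after centring each gene on its WT Hsc82 mean. SIP18 was closest to HSP26, at 0.047 log2 units, followed by BAG7 at 0.082 and SHH4 at 0.093. GRE1 was closest to PAI3 at 0.107, MSC1 at 0.122 and ALD3 at 0.138, so its nearest gene is the divergent neighbour of its own paralog. HSP12 was closest to GTT1, a glutathione transferase, at 0.056, then to YGR201C at 0.062 and TLD1 at 0.085. STF2 was closest to CMK2, a calmodulin-dependent kinase, at 0.032, COX20 at 0.037 and YMR187C at 0.037. Among the 4 genes themselves the closest pair was HSP12 and STF2 at 0.161, and SIP18 and GRE1 were 0.551 apart. None of the 4 was among the 3 nearest genes of another. With 2 groups of 3 arrays, such likeness mostly reflects a similar size of change.

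**Figure D5:**
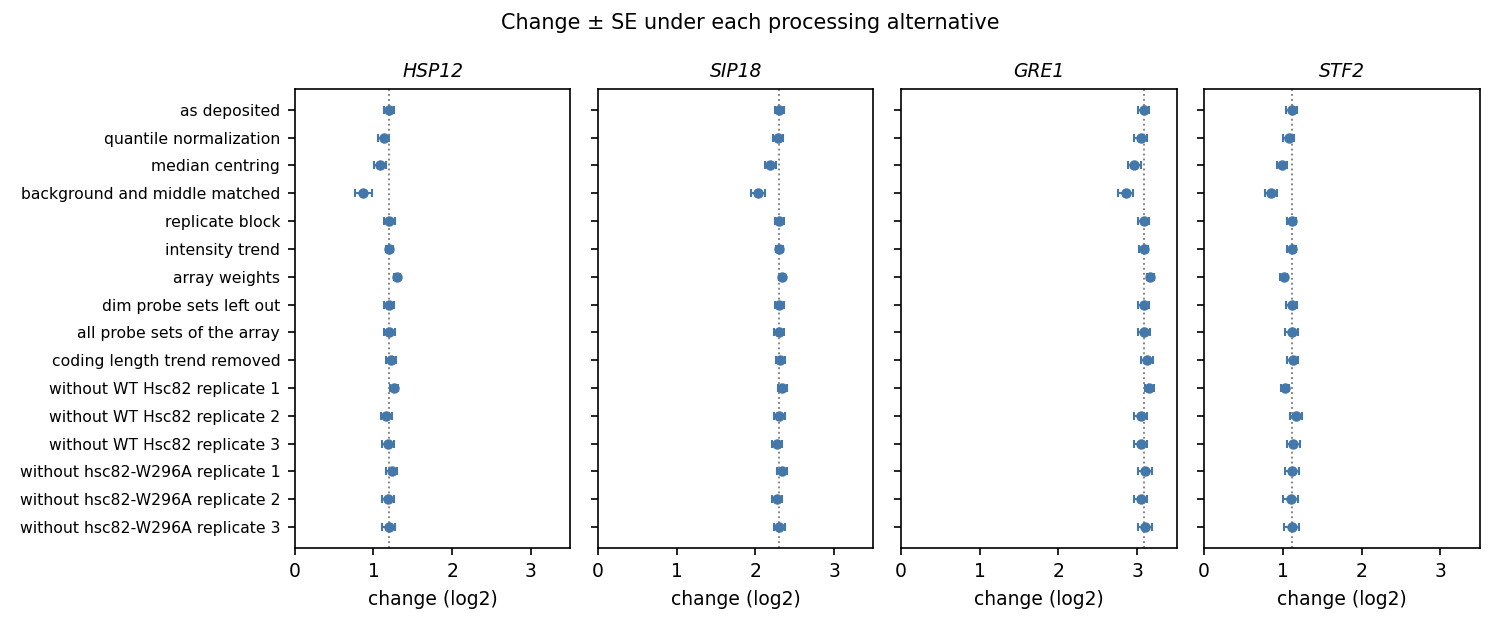
Change (log2) ± SE of HSP12, SIP18, GRE1 and STF2 as deposited and under 15 alternative ways of processing, with a dotted line at the value as deposited. All changes stayed above 0, and the lowest value of each gene came with background and middle of the arrays matched, down to 0.87 for HSP12 and 0.84 for STF2.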

How the data were processed

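Total RNA of 6 yeast cultures was labelled with biotin and hybridised to Affymetrix arrays, 1 per culture, per the labels. The range of the deposited values shows a log2 scale, and array means of 8.91 to 8.92 show that the authors normalized them across arrays. Of the authors' own steps only limma is named, in the submitters' processing notes, and without its role; the sources used here do not give how background was corrected and probes were summarized. For gene names, the platform annotation gave 1 gene symbol to 7244 of 10928 probe sets and several to 1, and it did not list 3683. Gene IDs matched 5498 of them to 5449 genes of assembly R64, with the brightest probe set kept for the 47 genes with several, and 12 symbols were updated. Precision is limited by the number of arrays.

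All 5498 probe sets were fitted with limma 3.58.1 (lmFit, eBayes) in R 4.3.3, without a block. Alternatives changed the scaling, the block, the variance model, the probe sets tested, a length trend or the arrays included. Of 5449 genes 2019 passed as higher and 1650 as lower, so 55.0% of calls were higher. Quantile normalization brought that share to 39.0% and the median change of all genes from 0.04 to -0.09. The share was 42.5% with each array centred on its median, and 44.1% with background and middle matched, in which a linear rescaling sets both the other-species median and the S. cerevisiae median of every array to a common value. Deviations from group means of same-numbered arrays correlated at 0.405, 0.148 and 0.364, and of others between -0.387 and 0.139. Deviations within a group cancel out, so these correlations are not independent and do not settle whether same-numbered arrays form pairs. No label states a pairing, and the paired fit is given as an alternative. On simulated data of 5498 probe sets the fit called 9 of 50 changes of 0.25 and 38 of 50 of 0.5. It called 46 of 50 of 1, 50 of 50 of 2 and 4 of 5298 unchanged ones. Far fewer probe sets changed there than were called in the real data, and noise was drawn independently for each array. These rates thus need not hold for the real fit.

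The 4 genes and all lists were chosen with earlier results of these data known. Named were the 4 genes, HSC82, TMA10, up to 4 genes per list with the smallest adjusted p, the regulators and markers, and the 3 nearest profiles of each gene. DDR2, HOR7, DDR48, HSP26, YNL190W, UBI4, GPD1, GPP2, STL1, GRE2, GRE3, TPS1, HSP104 and the neighbours were added after their values were seen. So was the count of divergent pairs. Some genes of the lists, YJL144W and ENA1 among them, were not analysed here. A list by protein composition and a promoter search, both planned, need sequences and were not made. Python 3.11.15, scipy 1.17.1 and pandas 2.3.3 were used.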

Additional observations from a re-analysis of the deposited data

How the results depend on the processing

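The changes of HSP12, SIP18, GRE1 and STF2 stayed past the threshold in the same direction under all 15 alternatives each. They ranged from 0.87 to 1.30, 2.04 to 2.34, 2.85 to 3.16 and 0.84 to 1.17, with the highest adjusted p = 0.000370 (limma, STF2 without an array). The replicate block changed no call among the 4 genes, with SIP18 at 2.30 and adjusted p = 3.11e-06 in the paired fit, and of all other genes tried it changed that of NMA2, which passed at -0.16 (adjusted p = 0.0264). For the regulators 3 fell after quantile normalization, 4 with background and middle matched and 2 after median centring, with array weights or with the coding length trend removed, against 1 as deposited. Of the MATa genes 1 rose after each of the 3 scalings and with the length trend removed, and 1 to 2 rose when 1 array was left out, since MFA1 lost its call without WT Hsc82 replicate 2 or 3 or any hsc82-W296A replicate. After quantile normalization 4 sporulation genes and 1 MATalpha gene fell. Of 126 other genes tried, 9 lost a call under some alternative and 11 gained one, not counting fits in which the direction turned. Direction turned, counting genes past the threshold in at least 1 of the 2 fits compared, after quantile normalization for DIT2 (-0.26), HOT1 (-0.40), SMK1 (-0.31) and SMP1 (-0.029), and with background and middle matched for HOG1 (-0.23), HOR7 (-0.054), HSC82 (-0.088) and MFA2 (-0.28). HSC82 also lost its call with the length trend removed, at 0.11. The cause was not tested. HSP12, HOR7 and, in the mutant, SIP18 and GRE1 read near the top of the scale, and whether this limits their measured changes was not tested. The background limits YMR175W-A, HXT10, ATH1, STL1, BAG7 and those cell state genes that read below it in WT Hsc82.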

Other observations

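The genes MMT1 and MMT2 encode paralogous mitochondrial metal transporters and lie near the paralogs SIP18 and GRE1, MMT1 as the third gene after SIP18 and MMT2 directly beside GRE1. They moved in opposite directions. MMT1 went from 10.43 ± 0.092 (SD, n = 3) to 9.68 ± 0.139, a change of -0.75 ± 0.083 (SE; limma adjusted p = 0.000258). MMT2 went from 10.02 ± 0.151 to 10.42 ± 0.017, a change of 0.40 ± 0.078 (SE; limma adjusted p = 0.00338), and it was 0.17 after quantile normalization, still past the threshold. The genes were singled out after their values were seen.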
